A study of Mus musculus with 9 samples.

Results

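Mouse genes that bring iron into a cell, carry it across membranes, store it, release it or sense it were followed, 10 in all, in J774A.1 cells, a tumour-derived mouse macrophage line. They were taken by name from a list and matched 10 of the 55487 gene identifiers counted: Tfrc, Steap3, Slc11a1, Slc11a2, Slc40a1, Fth1, Ftl1, Ncoa4, Aco1 and Ireb2. All 10 had enough counts to be tested, as had 13453 genes in the whole series. Control cells had received a safe sgRNA (genotype label WT), and the other cells 1 of 2 guide RNAs against Slc12a9, sgRNA 11 or sgRNA 15, for which the genotype label reads knockdown and the design text knockout. Slc12a9 belongs to the cation-chloride cotransporter family and was studied for a role in lysosomal osmolarity. All 3 groups were grown with 10% serum and glutamine and then kept for 6 h without serum or glutamine, so the medium of that period, without serum, was the same in control and guide cells. Each group had 3 libraries of polyadenylated RNA. The labels do not say whether the cells were clones or pools, nor whether replicates were separate cultures. The p-values therefore reflect just the spread among these libraries, which may be technical, and in such bulk samples fewer cells of a type and less RNA per cell cannot be told apart.

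Iron reaches most cells bound to transferrin, which the transferrin receptor carries into endosomes. There the iron is released by acid, reduced by a STEAP reductase and moved to the cytosol by DMT1, the product of Slc11a2. Cytosolic iron is stored in ferritin or leaves through ferroportin, the product of Slc40a1, and macrophages are known for exporting the iron of the red cells they digest. Stored iron is recovered when NCOA4 takes ferritin to the lysosome. The iron regulatory proteins, encoded by Aco1 and Ireb2, bind hairpins called iron-responsive elements in mRNAs when iron is low. Bound before the coding sequence, as in ferritin and ferroportin mRNAs, they hold back translation, and bound behind it, as in Tfrc mRNA, they protect the mRNA from decay. Read counts measure the mRNA level and not translation, protein or iron.

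The elements were looked for in the transcripts of GENCODE M21, an annotation of the mm10 build, because the iron regulatory proteins act through them. The search, on the transcript strand only, took a C, any 5 bases and the loop CAGTGN, with a last loop base other than G and all 5 bases before the loop able to pair with the 5 bases behind it, G-T pairs allowed. In the 30 bases printed, capitals mark the bulged C and the 6 bases of the loop. For Fth1, Ftl1 and Slc40a1, 1 element was found before the coding sequence, in 4 of 5, 1 of 2 and 1 of 4 annotated coding transcripts. They lie at chr19:9982731-9982760 (plus strand) for Fth1, chr7:45459779-45459808 (minus strand) for Ftl1 and chr1:45925465-45925494 (minus strand) for Slc40a1.
Fth1: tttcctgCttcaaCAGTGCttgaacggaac
Ftl1: tgtcttgCttcaaCAGTGTttgaacggaac
Slc40a1: ccaacttCagctaCAGTGTtagctaagttt
Tfrc held 4 elements behind the coding sequence in 1 of 3 coding transcripts, on the plus strand at chr16:32631218-32631247, chr16:32631597-32631626, chr16:32631662-32631691 and chr16:32631709-32631738.
Tfrc a: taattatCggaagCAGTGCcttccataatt
Tfrc b: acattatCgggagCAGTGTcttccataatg
Tfrc c: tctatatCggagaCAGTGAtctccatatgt
Tfrc d: taattatCgggaaCAGTGTttcccataatt
No other member matched this pattern, which says only that these letters and pairs are not in the transcripts searched. The pattern is strict, and elements that depart from it, also in other members, would be missed. A lack of a match therefore does not show that a member's mRNA does not respond to iron. Of 21812 protein-coding genes, 23 (0.105%) had a match before the coding sequence and 100 (0.458%) had one behind it.

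Gene counts summed to between 16405296 and 25613961 per library, and the groups' ranges overlapped. Levels are given as CPM, the count of a gene scaled to a common library size (over tested genes, with TMM factors), as mean ± SD of 3 libraries. Slc12a9 itself had 44.8, 53.5 and 47.0 CPM in the safe libraries, 62.6, 66.3 and 67.0 with sgRNA 11, and 48.2, 50.01 and 51.7 with sgRNA 15. It rose with sgRNA 11 (log2 0.43, SE 0.05, edgeR adjusted p = 6.45e-13) and was not called with sgRNA 15 (log2 0.05, SE 0.05, edgeR adjusted p = 0.426). Its mRNA was thus not lower with either guide, a measure that does not show whether the protein was lost, and each direction below is that of the libraries labelled with a guide. All 10 macrophage markers were present at 42.4 to 3269 CPM. Their summed level was 6065 to 6221 CPM in safe libraries, 9519 to 9824 with sgRNA 11 and 7844 to 7915 with sgRNA 15, and the part of this shift in the results was not tested. Lyz2 made up most of that shift (1727 ± 117, 4513 ± 87.2 and 3567 ± 37.7 CPM), and Cd14 went the other way (892 ± 8.58, 569 ± 12.4 and 647 ± 10.2 CPM). Of the 10 markers, 8 were higher and 2 lower with sgRNA 11, and 6 were higher and 3 lower with sgRNA 15, at an edgeR adjusted p under 0.05. The shares of all tested genes were 33.3% higher and 32.4% lower with sgRNA 11, and 32.2% and 30.7% with sgRNA 15. The markers Itgam and Csf1r share 68.7% and 15.1% of their exons with other gene models, Gm49368 and Hmgxb3, and are uncertain. Of 7 erythroid markers Hba-a1, Hbb-bs and Slc4a1 were at or near 0, and their summed level was 0.958 to 1.46 CPM in safe libraries, 0.837 to 1.18 with sgRNA 11 and 1.21 to 1.50 with sgRNA 15.

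With sgRNA 11, 3 members rose, of which Slc11a1 did not under a GC correction, and 7 fell against safe sgRNA at an adjusted p under 0.05 in edgeR's quasi-likelihood test, while 65.8% of all tested genes were called in that comparison (33.3% higher and 32.4% lower). With sgRNA 15, 2 rose, 6 fell and 2 were not called, against a background of 62.9% (32.2% higher and 30.7% lower). For the mean of guides, 2 rose, 7 fell and 1 was not called (background 68.0%, 34.7% higher and 33.3% lower). Most tested genes were called, so a call alone does not set a member apart. The median log2 fold change of the 10 members was -0.39 with sgRNA 11 and -0.15 with sgRNA 15, where that of all tested genes was 0.01 in each. A total of 7 members moved in the same direction with both guides: Tfrc, Steap3, Slc11a2, Aco1 and Ireb2 fell, and Slc40a1 and Fth1 rose. Of all tested genes, 51.7% were called in the same direction with both guides (26% higher and 25.7% lower), and both comparisons use the same 3 safe libraries. No member's libraries overlapped between sgRNA 11 and safe sgRNA, and 8 of the 10 did not overlap between sgRNA 15 and safe sgRNA, which was so for 67.7% and 65.8% of all tested genes.

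**Figure D1:**
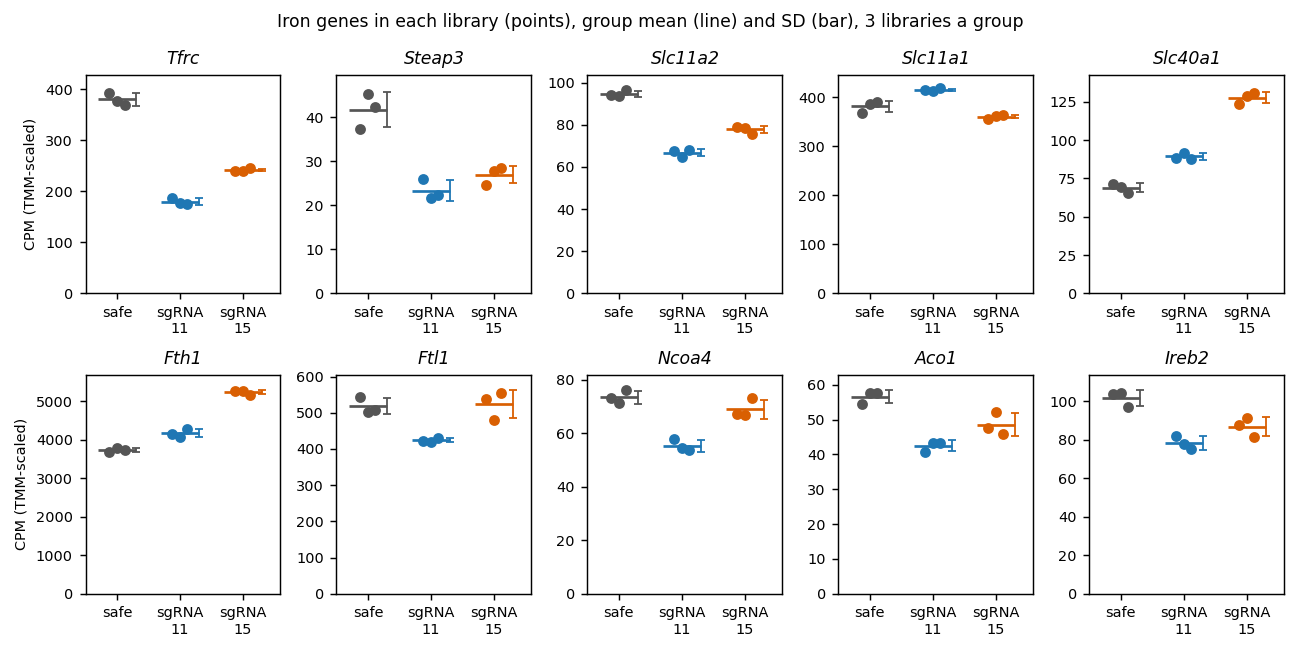
Level of each of the 10 iron genes in CPM (vertical axes from 0) in the 9 libraries, shown as points by group, with the group mean as a line and the SD as a bar. Tfrc, Steap3 and Slc11a2 sit lower with both guides than in safe libraries, and Slc40a1 and Fth1 sit higher, most of all with sgRNA 15.

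Transferrin uptake was the function whose genes fell most. Tfrc encodes the transferrin receptor (ENSMUSG00000022797, chromosome 16, 32608920 to 32632794, plus strand). It had 394, 378 and 370 CPM in the safe libraries, against 188, 177 and 175 under sgRNA 11 and 241, 241 and 245 under sgRNA 15. The 3 groups did not overlap, and the lowest values were those of sgRNA 11. Tfrc fell from 381 ± 12.2 to 180 ± 6.99 CPM with sgRNA 11 (log2 -1.08, SE 0.03, 0.472 times the safe level, edgeR adjusted p = 1.63e-52). It fell to 242 ± 2.47 CPM with sgRNA 15 (log2 -0.65, SE 0.03, 0.635 times, edgeR adjusted p = 1.87e-37). It was the only member to change by at least 1 on the log2 scale, and that with sgRNA 11 alone. Tfrc is the member with the 4 elements printed above, though counts per gene do not tell its transcripts apart.

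Steap3 encodes an endosomal reductase that turns ferric into ferrous iron (ENSMUSG00000026389, chromosome 1, 120190757 to 120272705, minus strand). Its level was 37.5, 45.3 and 42.4 CPM in the safe libraries, 26.01, 21.6 and 22.5 with sgRNA 11, and 24.7, 27.8 and 28.4 with sgRNA 15. Every library with a guide lay below every safe library, while the guides overlapped. Steap3 fell with sgRNA 11 (log2 -0.83, SE 0.07, edgeR adjusted p = 1.59e-16) and with sgRNA 15 (log2 -0.63, SE 0.07, edgeR adjusted p = 2.37e-12), to 0.564 and 0.648 times its safe level.

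The carriers that move iron across membranes went different ways. Slc11a2 encodes DMT1, which takes ferrous iron out of endosomes (ENSMUSG00000023030, chromosome 15, 100387898 to 100425072, minus strand). It had 93.9, 93.5 and 96.4 CPM in the safe libraries, against 67.3, 64.9 and 68.1 under sgRNA 11 and 79.0, 78.6 and 75.6 under sgRNA 15. As for Tfrc, the groups were apart, with sgRNA 15 between the other two. Slc11a2 fell to 0.707 times its safe level with sgRNA 11 (log2 -0.50, SE 0.04, edgeR adjusted p = 3.53e-20) and to 0.823 times with sgRNA 15 (log2 -0.28, SE 0.04, edgeR adjusted p = 9.26e-10).

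Slc11a1 encodes NRAMP1, a related carrier of the phagosome and late endosome membrane of macrophages (ENSMUSG00000026177, chromosome 1, 74375195 to 74386062, plus strand). Its level was 367, 386 and 389 CPM in safe libraries, 414, 413 and 417 with sgRNA 11, and 356, 362 and 362 with sgRNA 15. It was the member called in opposite directions with the guides, higher with sgRNA 11 (log2 0.12, SE 0.02, edgeR adjusted p = 8.47e-06) and lower with sgRNA 15 (log2 -0.08, SE 0.03, edgeR adjusted p = 0.00412). Both differences are under 1.1-fold. The rise with sgRNA 11 was lost when GC and length were corrected for (log2 -0.02, edgeR adjusted p = 0.414), and the fall with sgRNA 15 was not called with library size alone as scaling (log2 -0.04, edgeR adjusted p = 0.136).

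Slc40a1 encodes ferroportin, the exporter of iron (ENSMUSG00000025993, chromosome 1, 45908068 to 45926523, minus strand). It had 71.1, 69.6 and 65.5 CPM in the safe libraries, against 88.4, 91.7 and 87.9 under sgRNA 11 and 124, 129 and 131 under sgRNA 15. The groups did not overlap, and here sgRNA 15 was farthest from safe sgRNA. Slc40a1 rose 1.29-fold with sgRNA 11 (log2 0.37, SE 0.04, edgeR adjusted p = 2.74e-14) and 1.85-fold with sgRNA 15 (log2 0.89, SE 0.04, edgeR adjusted p = 1.26e-36). The latter was the largest rise of any member.

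Ferritin is a shell of heavy and light chains, of which the heavy chain oxidises the iron that enters. Fth1, the heavy chain gene (ENSMUSG00000024661, chromosome 19, 9980598 to 9985098, plus strand), had 3691, 3790.2 and 3735 CPM in the safe libraries, against 4154, 4060.2 and 4268 under sgRNA 11 and 5267, 5254 and 5172 under sgRNA 15. The groups did not overlap. Fth1 rose from 3739 ± 49.8 to 4161 ± 104 CPM with sgRNA 11 (log2 0.15, SE 0.02, edgeR adjusted p = 8.02e-10) and to 5231 ± 51.5 CPM with sgRNA 15 (log2 0.48, SE 0.02, edgeR adjusted p = 2.16e-35). These are rises of 1.11-fold and 1.40-fold. As a share of the TMM-scaled library size, Fth1 alone came to 0.369 to 0.379% in safe libraries and 0.517 to 0.527% with sgRNA 15.

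Ftl1, the light chain gene (ENSMUSG00000050708, chromosome 7, 45457944 to 45459884, minus strand), did not follow Fth1. It had 543, 503 and 507 CPM in the safe libraries, against 421, 420.4 and 431 under sgRNA 11 and 537, 481 and 556 under sgRNA 15. The sgRNA 11 libraries lay below all others, and those of sgRNA 15 spread across the safe range. Ftl1 fell with sgRNA 11 (log2 -0.29, SE 0.06, edgeR adjusted p = 0.00238), and with sgRNA 15 its log2 difference was 0.02 (SE 0.06, edgeR adjusted p = 0.824). Without sgRNA 15 replicate 2, its lowest library, that difference was called (log2 0.07, edgeR adjusted p = 0.0267).

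The counts of Ftl1 are uncertain. A gene model on the other strand, Gm10252, covers 26.5% of its exons, whether counting used strand is not given, and processed copies of Ftl1 elsewhere in the genome can take or void its reads. Ftl1-ps1, the copy with the most counts of those bearing its name, had 19.4 ± 0.89, 13.6 ± 2.11 and 18.4 ± 0.84 CPM in the safe, sgRNA 11 and sgRNA 15 groups, so it fell in the same direction with sgRNA 11 (log2 -0.52, edgeR adjusted p = 7.65e-08). The ratio of Fth1 to Ftl1 counts within a library was 7.23 ± 0.39, 9.81 ± 0.14 and 10.01 ± 0.82 in the safe, sgRNA 11 and sgRNA 15 groups. It was higher in all 6 guide libraries (9.31 to 10.9) than in the safe libraries (6.79 to 7.53).

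Ncoa4, the receptor that delivers ferritin to autophagy (ENSMUSG00000056234, chromosome 14, 32159865 to 32179855, plus strand), had 73.2, 71.2 and 76.1 CPM in the safe libraries, against 57.8, 54.3 and 53.9 under sgRNA 11 and 67.2, 66.9 and 73.1 under sgRNA 15. Only sgRNA 15 overlapped the safe libraries. Ncoa4 fell with sgRNA 11 (log2 -0.41, SE 0.04, edgeR adjusted p = 1.59e-13). With sgRNA 15 its difference was log2 -0.09 (SE 0.04, edgeR adjusted p = 0.0531), close to the threshold. It passed that threshold with 5 of the 9 libraries left out in turn, namely safe replicate 2 (log2 -0.13), sgRNA 11 replicates 1, 2 and 3 (log2 -0.10, -0.10 and -0.11) and sgRNA 15 replicate 3 (log2 -0.15). Over all 18 alternatives it was called in 10, RLE size factors, the GC and length correction, limma-voom, the replicate block and the fit of only the groups compared included, with adjusted p between 0.00257 and 0.264.

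The genes of the iron regulatory proteins both fell. Aco1 encodes IRP1, which works as a cytosolic aconitase when it holds an iron-sulfur cluster and binds RNA when it does not (ENSMUSG00000028405, chromosome 4, 40143081 to 40198338, plus strand). It had 54.4, 57.5 and 57.8 CPM in the safe libraries, against 40.8, 43.4 and 43.4 under sgRNA 11 and 47.5, 52.3 and 45.9 under sgRNA 15. Its groups did not overlap, and sgRNA 15 lay between the others. Aco1 fell to 0.752 times the safe level with sgRNA 11 (log2 -0.41, SE 0.05, edgeR adjusted p = 9.94e-12) and to 0.863 times with sgRNA 15 (log2 -0.21, SE 0.05, edgeR adjusted p = 0.000105).

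Ireb2 encodes IRP2, which is broken down when iron is plentiful (ENSMUSG00000032293, chromosome 9, 54863789 to 54912530, plus strand). It had 104, 104 and 97.1 CPM in the safe libraries, against 82.2, 77.8 and 75.2 under sgRNA 11 and 87.4, 91.3 and 81.5 under sgRNA 15. All 6 guide libraries were below the safe ones, and the guides overlapped. The fall was to 0.770 times with sgRNA 11 (log2 -0.38, SE 0.04, edgeR adjusted p = 4.47e-14) and to 0.855 times with sgRNA 15 (log2 -0.23, SE 0.04, edgeR adjusted p = 5.02e-07).

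**Figure D2:**
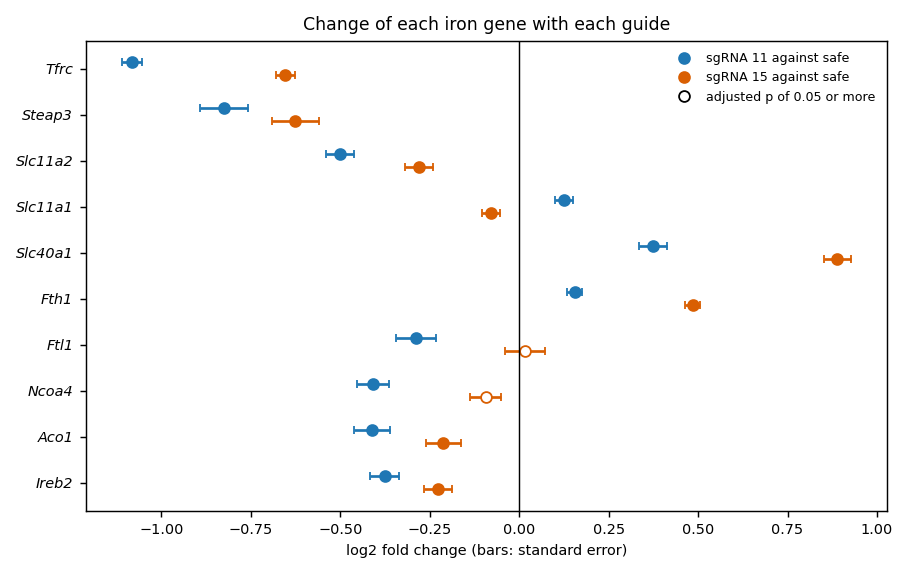
Log2 fold change of each of the 10 iron genes (rows) with sgRNA 11 and sgRNA 15 against safe sgRNA, with its standard error as a bar and open points where the adjusted p was 0.05 or more. Tfrc lies farthest to the left (-1.08 and -0.65), Slc40a1 farthest to the right (0.37 and 0.89), and the open points are Ftl1 and Ncoa4 with sgRNA 15.

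The guides differed from each other at every member. With sgRNA 15 against sgRNA 11, 9 members were higher and 1 was lower, a comparison in which 33.5% of all tested genes were called (18% higher and 15.5% lower), and the members' median log2 difference was 0.26 against 0.01 over all tested genes. Libraries of the guides did not overlap for 8 members, which was so for 42.8% of all tested genes, and overlapped for Steap3 and Ireb2. The largest differences were those of Slc40a1 (log2 0.52, SE 0.04, edgeR adjusted p = 6.30e-22) and Tfrc (log2 0.43, SE 0.03, edgeR adjusted p = 1.58e-23), and the lower gene was Slc11a1 (log2 -0.20, SE 0.02, edgeR adjusted p = 6.87e-11). These differences compare the guides with each other, but the safe libraries entered the same fit and so its scaling and estimate of spread. Relative to safe sgRNA, the higher level with sgRNA 15 meant a smaller fall for Tfrc and Slc11a2 and a larger rise for Slc40a1 and Fth1.

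Small differences between the guides depended on single libraries or on the tool. Steap3 (log2 0.20, edgeR adjusted p = 0.0252) was not called without sgRNA 11 replicate 2 (log2 0.15) or 3 (log2 0.16), nor without sgRNA 15 replicate 2 (log2 0.17) or 3 (log2 0.16), nor by DESeq2 on all libraries (log2 0.20, DESeq2 adjusted p = 0.0830). Without sgRNA 15 replicate 2, Aco1 (log2 0.13 in place of 0.20) and Ireb2 (log2 0.10 in place of 0.15) were not called either, which left 7 of the 10 members. Ireb2 also lost its call after the GC and length correction (log2 0.02).

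A ratio of counts within a library does not depend on how libraries are scaled. The ratio of Fth1 to Tfrc counts was 9.37, 10.03 and 10.1 in safe libraries, 22.1, 23.0 and 24.4 with sgRNA 11, and 21.9, 21.8 and 21.1 with sgRNA 15. All guide libraries lay above the safe ones; Tfrc had changed more with sgRNA 11, and Fth1 more with sgRNA 15. The ratio of Slc40a1 to Tfrc rose from 0.181 ± 0.0036 to 0.497 ± 0.024 and 0.527 ± 0.012. These ratios were chosen after the values were seen and are given without a test.

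**Figure D3:**
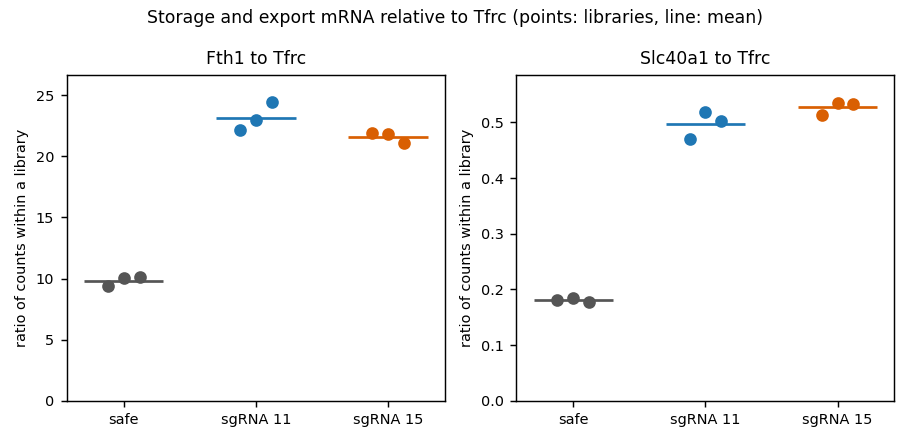
Ratio of Fth1 to Tfrc counts (left) and of Slc40a1 to Tfrc counts (right) within each library, shown as points by group with the mean as a line; both vertical axes start at 0. Guide libraries lie at 21.1 to 24.4 for Fth1 to Tfrc, above the safe libraries at 9.37 to 10.1.

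Per length, the members spanned a wide range of abundance. In CPM per kilobase of the principal transcript, safe libraries had Fth1 at 4024 ± 53.7, followed by Ftl1 (535 ± 22.8), Slc11a1 (164 ± 5.08), Tfrc (77.8 ± 2.49), Slc11a2 (31.3 ± 0.51) and Slc40a1 (20.4 ± 0.87). Below these came Ncoa4 (18.1 ± 0.61), Ireb2 (17.6 ± 0.70), Aco1 (14.8 ± 0.48) and Steap3 (8.09 ± 0.77). Ncoa4 and Ireb2 did not differ beyond their spread. The exporter and the receptor drew closer with the guides. Tfrc stood at 36.8 ± 1.43 and Slc40a1 at 26.5 ± 0.61 CPM per kilobase with sgRNA 11, and at 49.5 ± 0.51 and 37.9 ± 1.10 with sgRNA 15, where Slc11a2 had 22.1 ± 0.55 and 25.7 ± 0.61. Slc40a1 was thus above Slc11a2 with both guides on this length, but on the length of all annotated exons with sgRNA 15 alone (14.2 ± 0.41 against 12.2 ± 0.29), and not with sgRNA 11 (9.92 ± 0.23 against 10.5 ± 0.26). With all annotated exons as the length, the order of the first 5 in safe libraries stayed, and Slc40a1 moved below Aco1, Ireb2 and Ncoa4 to place 9. On that length Slc40a1 (7.64 ± 0.33) did not differ from Ncoa4 (7.85 ± 0.26) or Steap3 (7.30 ± 0.70) beyond their spread.

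By correlation of log2 CPM over the 9 libraries, the genes most like Tfrc were Vdac2, a channel of the outer mitochondrial membrane (r = 0.999), and Pcf11, an mRNA 3′ end processing factor (r = 0.998). Vdac2 had 404 ± 2.603, 268 ± 6.84 and 316 ± 0.33 CPM in the safe, sgRNA 11 and sgRNA 15 groups. Of 9300 genes compared, 275 had an r above 0.98 with Tfrc and 9 had one with Steap3, in libraries that fall into 3 groups of close replicates. Those most like Steap3 were Mrfap1 (r = 0.989), Tram1 (r = 0.988) and Gorasp2 (r = 0.987), with smaller changes than its own (log2 -0.12, -0.14 and -0.18 with sgRNA 11).

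Other genes of iron handling, 73 in 6 role groups, moved in both directions. Of the 59 tested, 20 rose and 24 fell with sgRNA 11, and 20 rose and 21 fell with sgRNA 15. These shares, 74.6% and 69.5%, are near the backgrounds of 65.8% and 62.9%. The median log2 fold change was -0.03 with each guide. In the same direction with both guides, 16 rose and 19 fell, or 59.3% of those tested, against 51.7% of all tested genes. Nfe2l2, a transcription factor of the oxidative stress response that was singled out after its values were seen, was called in opposite directions (log2 -0.19 and 0.14).

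Of 15 genes of further uptake routes 7 had enough counts, and 5 of these rose with both guides, as did 26% of all tested genes. The other 2, the metal carriers Slc39a14 (log2 -0.06 with sgRNA 11 and -0.28 with sgRNA 15) and Slc39a8 (log2 -0.11 and 0.20), were called with sgRNA 15 and not with sgRNA 11, and were picked out after their values were seen. Lrp1, an endocytic receptor that also clears haem-hemopexin, rose from 1797 ± 56.5 to 2831 ± 56.7 and 2616 ± 51.3 CPM with sgRNA 11 and sgRNA 15 (log2 0.66 and 0.54). Slc22a17, a receptor for lipocalin 2, rose from 15.4 ± 1.16 to 41.2 ± 1.59 and 36.3 ± 3.15 CPM, 2.67-fold and 2.35-fold. Trf, which encodes transferrin, rose from 199 ± 3.77 to 286 ± 4.37 and 239.97 ± 5.42 CPM. It shares 63.5% of its exons with another gene model, Gm20425, and is uncertain by the rule on shared exons used here. That model is not among the gene identifiers counted, so no reads were assigned to it. Hfe, whose protein binds the transferrin receptor, rose from 17.9 ± 0.71 to 32.2 ± 0.45 and 24.98 ± 1.82 CPM. The remaining gene that rose with both guides was Cybrd1, also picked out after its values were seen. Cybrd1 was at 0.618 ± 0.209, 1.15 ± 0.51 and 1.19 ± 0.33 CPM in the safe, sgRNA 11 and sgRNA 15 groups. At this low level few counts stand behind each library. The group's median log2 fold change was 0.66 with sgRNA 11 and 0.48 with sgRNA 15.

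Haem handling was mixed. Hmox1, haem oxygenase 1, which frees iron from haem, fell from 144 ± 2.78 to 112 ± 2.34 and 122 ± 1.23 CPM (log2 -0.36 and -0.23). Slc48a1, a haem carrier of the phagolysosome, fell as well (log2 -0.22 and -0.25), and Abcg2, a transporter that can export haem and porphyrins, rose (log2 0.52 and 0.72). Flvcr1, a haem and choline transporter, fell with sgRNA 11 (from 63.2 ± 1.54 to 39.4 ± 1.70 CPM, log2 -0.68) and stood at 59.6 ± 2.45 with sgRNA 15 (log2 -0.09, edgeR adjusted p = 0.0973). The guides differed at Flvcr1 (log2 0.59 for sgRNA 15 against sgRNA 11). Its exons overlap an antisense gene over 15.6% of their length, so its value is uncertain. Over the 8 tested genes of this group, 2 rose and 4 fell with sgRNA 11, and 3 rose and 4 fell with sgRNA 15. Among all tested genes, 33.3% were higher and 32.4% lower with sgRNA 11, and 32.2% and 30.7% with sgRNA 15.

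Among regulators and partners of export, 2 parts of the ubiquitin ligase that degrades IRP2, Skp1 and Cul1, fell with both guides (log2 -0.42 and -0.42 for Skp1, -0.48 and -0.39 for Cul1), though both serve many other substrates. Fbxl5, the iron-sensing subunit of that ligase, was singled out after its values were seen and was not called (log2 0.06 and -0.03). Herc2, a ubiquitin ligase, rose (log2 0.43 and 0.35). Cp encodes ceruloplasmin, the oxidase that helps ferroportin load iron on transferrin. It rose from 0.397 ± 0.051 to 0.993 ± 0.079 and 1.20 ± 0.17 CPM, a low level at which few counts stand behind each library. In this group of 9 tested genes, 2 rose and 3 fell with sgRNA 11, and 3 rose and 2 fell with sgRNA 15. The background was 33.3% higher and 32.4% lower with sgRNA 11, and 32.2% and 30.7% with sgRNA 15.

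Of 23 genes of mitochondrial iron and iron-sulfur cluster assembly, 6 rose and 12 fell with sgRNA 11, and 3 rose and 10 fell with sgRNA 15. The shares of all tested genes were 33.3% higher and 32.4% lower with sgRNA 11, and 32.2% and 30.7% with sgRNA 15. Ciapin1, an electron carrier of cytosolic cluster assembly, fell from 122 ± 3.97 to 67.1 ± 3.54 and 74.2 ± 3.69 CPM (log2 -0.86 and -0.71). Glrx5, a mitochondrial glutaredoxin that passes clusters on, fell (log2 -0.52 and -0.46), and Mms19, which targets clusters to nuclear enzymes, rose (log2 0.52 and 0.43). The group's median log2 fold change was -0.14 with sgRNA 11 and -0.05 with sgRNA 15.

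The 8 enzymes of haem synthesis divided, with 4 higher and 3 lower with sgRNA 11 and 3 of each with sgRNA 15. All tested genes divided as well, 33.3% higher and 32.4% lower with sgRNA 11, and 32.2% and 30.7% with sgRNA 15. Alad, the second enzyme of the pathway, fell from 70.03 ± 2.92 to 47.6 ± 3.13 and 49.6 ± 0.40 CPM (log2 -0.55 and -0.49). Urod (log2 0.46 and 0.36) and Ppox (log2 0.50 and 0.35), which act later, rose. B4galt3 on the other strand overlaps 17.5% of the exons of Ppox, whose value is uncertain.

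Of 4 tested genes among other mRNAs described as holding an iron-responsive element, 1 rose and 2 fell with sgRNA 11, and 2 rose and 1 fell with sgRNA 15. Over all tested genes, 33.3% rose and 32.4% fell with sgRNA 11, and 32.2% and 30.7% with sgRNA 15. Epas1, which encodes HIF-2 alpha, was at 135 ± 4.88, 135 ± 3.55 and 179.6 ± 2.81 CPM, not called with sgRNA 11 (log2 0.00, edgeR adjusted p = 0.983) and higher with sgRNA 15 (log2 0.42, edgeR adjusted p = 2.29e-21). Cdc42bpa, a kinase of the cytoskeleton, rose (log2 0.40 and 0.84), and Cdc14a, a phosphatase, fell with sgRNA 11 (log2 -0.30) and was not called with sgRNA 15 (log2 -0.17, edgeR adjusted p = 0.0784).

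**Figure D4:**
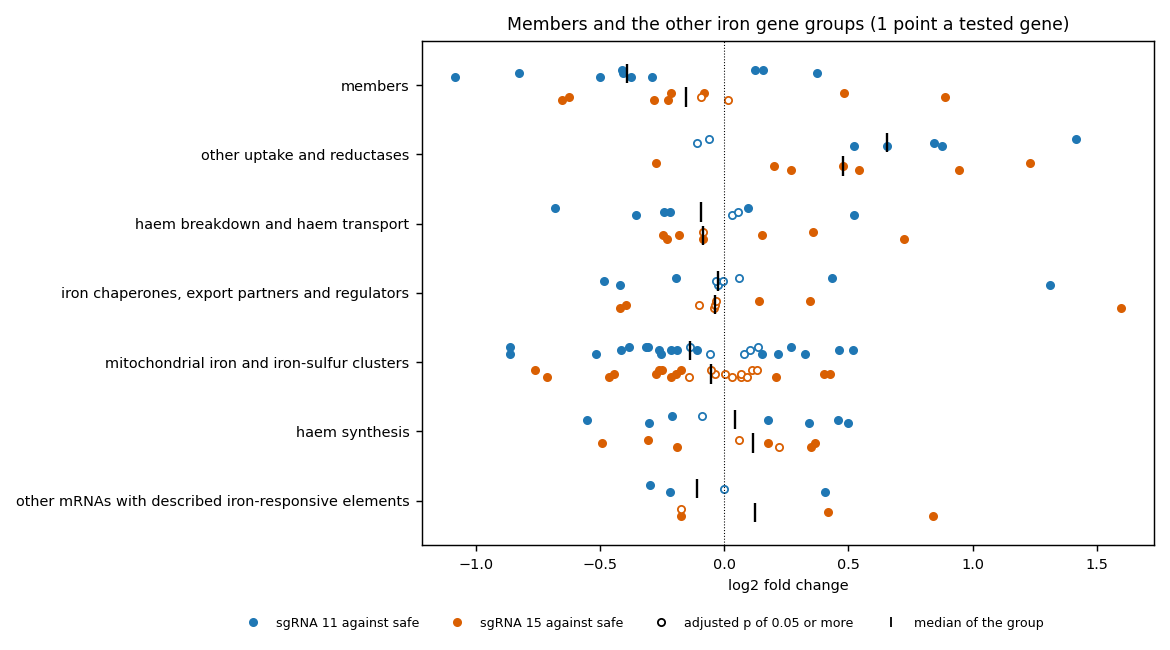
Log2 fold change of every tested gene of the 10 members (top row) and of 6 other groups of iron genes with sgRNA 11 and sgRNA 15 against safe sgRNA, with the group median as a bar and open points where the adjusted p was 0.05 or more. The further uptake genes have 5 of 7 members called higher with both guides (medians 0.66 and 0.48), and the other groups spread to both sides. The further uptake genes called higher include Cybrd1, which was at a low level.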

How the data were processed

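RNA-seq of 9 J774A.1 libraries was deposited as raw gene counts, for which the submitters' processing notes name STAR, HTSeq and the mm10 build. No version, annotation, strandedness or counting mode is given in those notes. Genes held 79.3 to 80.7% of each table, and the remaining tallies stayed out, among them ambiguous (6.32 to 6.56%) and multiply aligned reads (6.20 to 6.69%), which overlapping genes and close copies lose. Groups came from the sample titles. Identifiers were matched to GENCODE M21 (mm10), with 2 list genes, Skp1 and Ciao3, found through a RefSeq synonym. Levels per length used the longest principal transcript with the best support.

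The model was edgeR 4.0.16 (R 4.3.3). After filterByExpr at a minimum count of 10, libraries were scaled by TMM (factors 0.979 to 1.02) and fitted with a robust quasi-likelihood model of all 9 libraries (6 residual degrees of freedom). Tests were 2-sided, Benjamini-Hochberg adjusted over all 13453 tested genes within each contrast at 0.05. Standard errors derive from the F statistics. The procedure was tested on simulated data. Alternatives were DESeq2 1.42.0, limma-voom (limma 3.58.1), other scalings, a GC and length correction, other filters, a replicate block, fits of the groups compared and each library left out. Genes sharing at least 10% of their exons with another are called uncertain. Members and lists were chosen with earlier results of these data known. Besides all members and Slc12a9, the text names up to 4 genes per list ranked by their p in the mean-of-guides contrast, and the 3 genes best correlated with each of the 2 members that changed most (mean of at least 5 CPM, no predicted models or pseudogenes), except some that are not reported here. Deviations from the group mean correlated at r -0.0077 to 0.058 between same-numbered replicates and at -0.072 to 0.041 between the others. The labels do not say that equal numbers share a culture or day, so the numbers were not taken as pairs. For granulocyte, lymphocyte, and fibroblast and epithelial markers, the highest summed levels in any library were 4.09, 0.317 and 0.216 CPM.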

Additional observations from a re-analysis of the deposited data

Results flagged for a closer look

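Each member's difference from safe sgRNA was itself different between the guides, by the edgeR test of sgRNA 15 against sgRNA 11 (log2 values, adjusted p from 4.37e-24 to 0.0252). The difference was 0.52 for Slc40a1, 0.43 for Tfrc, 0.33 for Fth1, 0.31 for Ncoa4, 0.31 for Ftl1, 0.22 for Slc11a2, 0.20 for Aco1, 0.20 for Steap3 and 0.15 for Ireb2, and -0.20 for Slc11a1. Of all tested genes 33.5% also differed between the guides, and groups of 3 libraries are too small for a test of single outlying samples.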

How the results depend on the processing

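Every count of called genes, over all tested genes, the 10 members and the wider lists, stayed within 1.5 times its main value in each alternative. Members called ranged from 9 to 10 with sgRNA 11, 7 to 9 with sgRNA 15 and 8 to 10 for the mean of guides, and from 7 to 10 between the guides. Of 1151 single gene values under an alternative, 1114 kept their direction and side of the threshold, 17 lost and 12 gained a call, and 8 turned sign. Those that turned were Slc11a1 after the GC and length correction with sgRNA 11 (-0.020 from 0.12) and for the mean of guides (-0.094 from 0.02, and now called lower, edgeR adjusted p = 6.74e-06), and Ftl1 with sgRNA 15 (-0.012 from 0.02). With a library left out, Slc11a1 for the mean of guides ranged from -0.0054 (without safe replicate 1) to 0.029 (without sgRNA 15 replicate 1), and Ftl1 with sgRNA 15 from -0.040 (without sgRNA 15 replicate 3) to 0.069 (without sgRNA 15 replicate 2). The cause was not tested. The fall of Ftl1 for the mean of guides (-0.14) lost its call in 8 alternatives. With the replicate block, 10 members were called with sgRNA 11, 9 with sgRNA 15, 9 for the mean of guides and 10 between the guides, the gain being Ncoa4 with sgRNA 15 (edgeR adjusted p = 0.0457), and 8940, 8550, 9236 and 4695 genes were called in all.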
